A study of Zea mays with 74 samples.

Results

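The regions described here are the differentially methylated regions (DMRs) between teosinte and landraces, that is, stretches of the genome whose cytosine methylation differed between these populations. They are the rows that the deposited DMR table assigns to that comparison, in every sequence context, and they number 1043 of the 6389 DMRs in the table (16.3%). Maize was domesticated from teosinte (Zea mays ssp. parviglumis), and the landraces are open-pollinated farmer varieties from across Mexico. Whole-genome bisulfite sequencing (WGBS) was carried out on 20 teosinte and 17 landrace plants, and whole-genome sequencing (WGS) on plants of the same names, from the third leaf of greenhouse seedlings. All teosinte plants came from a natural population near 1 collection site, so they stand for that population and not for the subspecies. The labels name no treatment and no genetic change of the plants. Modern maize inbred lines, whose published methylomes entered the other comparisons of the table, took no part in the DMRs described here.

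Bisulfite treatment changes unmethylated cytosines and leaves methylated ones, so that reads record methylation base by base. Plant methylation is sorted by the bases after the cytosine into CG, CHG and CHH, with H standing for A, C or T. CG methylation is copied onto the new DNA strand at replication by MET1-type methyltransferases and occurs both in transposons and in the bodies of many active genes. CHG methylation is kept by chromomethylases that recognise histone H3 lysine 9 dimethylation, and in maize it covers much of the transposon-rich chromatin around the centromeres. CHH methylation has to be re-established each cycle, largely by RNA-directed DNA methylation, and in maize it is concentrated in short islands near genes.

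The DMRs were called between populations. The table gives a position, a context and a comparison, but neither methylation levels of single plants nor a direction, and no test between the populations and no spread between plants is given for any region. Counts and shares below therefore describe the list of regions. Where an interval is printed it is an exact 95% binomial (or, for a density, Poisson) interval that covers counting error only, and neighbouring DMRs are not independent of each other. By the study's sample table the landrace bisulfite libraries were shallower than those of teosinte and had longer reads, so that population, depth and read length cannot be told apart. Coordinates are those of the B73 AGPv4 genome.

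Most teosinte-landrace DMRs lay in the symmetric contexts. There were 590 CHG DMRs (56.6%, interval 53.5% to 59.6%), 431 CG DMRs (41.3%, 38.3% to 44.4%) and 22 CHH DMRs (2.11%, 1.33% to 3.18%), or 1.37 CHG DMRs for each CG DMR. Because DMRs of different contexts can lie on top of each other, the 1043 calls fell on 847 separate places, which covered 312.7 kb or 0.0149% of the chromosomes. In the other comparisons of the table, CHG DMRs also outnumbered CG DMRs, by 1.54 to 1 between teosinte and modern maize (4972 DMRs) and by 1.10 to 1 between landraces and modern maize (374 DMRs). CHH DMRs made up 21.2% of the former and 4.01% of the latter. These comparisons share the teosinte or the landrace plants with the one described here, and the differences between their make-ups were not tested. The maximum corrected P-value and the minimum number of cytosines per DMR that the methods state are not given by context, and the minimum methylation difference is stated for CG and CHG DMRs only.

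CHG DMRs were the longest and CHH DMRs the shortest. The median length was 332.5 bp for CHG DMRs (quartiles 211 and 543 bp, range 64 to 4005 bp), 260 bp for CG DMRs (176.5 and 394 bp, range 61 to 1219 bp) and 109.5 bp for CHH DMRs (65.8 and 145.5 bp, range 45 to 308 bp). The CHG list therefore covered 244.4 kb against 133.4 kb for the CG list and 2.63 kb for the CHH list. DMRs over 1 kb were nearly all CHG, with 17 CHG DMRs and 1 CG DMR. DMRs under 100 bp numbered 11 of the 22 in the CHH list, 19 of 431 in the CG list (4.41%) and 5 of 590 in the CHG list (0.847%). The order of the medians was the same on each chromosome for CG and CHG, with CG medians from 194 bp on chromosome 6 to 315.5 bp on chromosome 7 and CHG medians from 292 bp on chromosome 8 to 396.5 bp on chromosome 7.

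**Figure D1:**
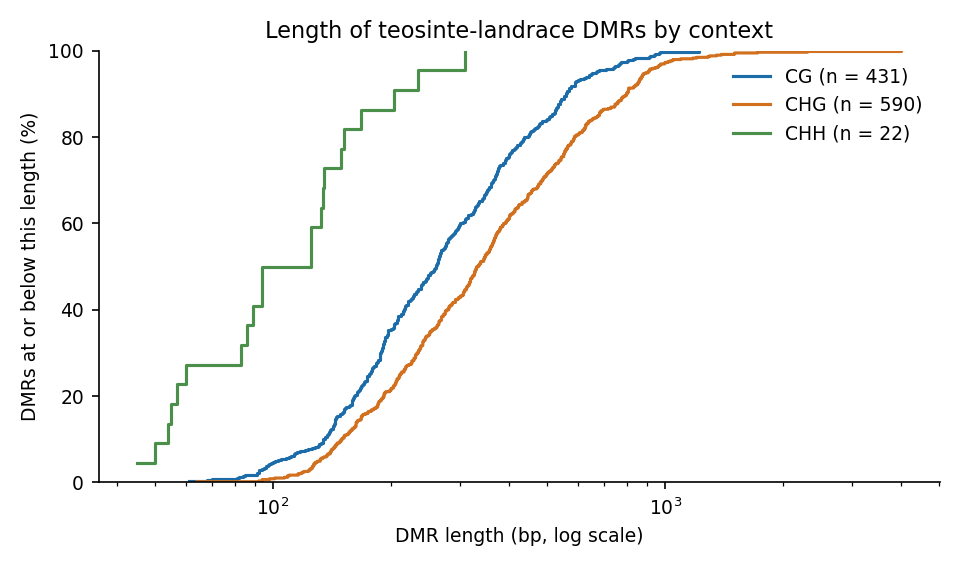
Cumulative share of teosinte-landrace DMRs (y axis, percent) at or below each length (x axis, bp, log scale), 1 line per context. The CHG curve lies to the right of the CG curve along most of its length (medians 332.5 and 260 bp), and all 22 CHH DMRs are 308 bp or shorter.

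The longest DMR of the list was a CHG region of 4005 bp at chr9:155230646-155234651, near the end of the chromosome and 5926 kb from the nearest teosinte-landrace sweep. Within the same stretch the teosinte-maize comparison held 2 shorter CHG calls, the first of 248 bp. A CG DMR of 534 bp (chr9:155234157-155234691) lay across its right end, at a place that the study's lists put upstream of the gene Zm00001d048372. The next longest CHG DMRs measured 2306 bp (chr8:67539371-67541677, where the teosinte-maize comparison had 3 separate calls) and 1721 bp (chr1:129241396-129243117, where it had 1 call of 1885 bp). The longest CG DMR, of 1219 bp, was at chr1:129828546-129829765, with a teosinte-maize CG call of exactly the same bounds. It was followed by 971 bp at chr8:107889544-107890515, where neither other comparison had a CG call, and by 964 bp at chr3:85284653-85285617, where the teosinte-maize call was 1008 bp. At the other end of the scale stood a CG DMR of 61 bp (chr10:68648868-68648929) and a CHG DMR of 64 bp (chr5:202326248-202326312), neither with a call of the same context in the other comparisons.

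Every chromosome held CG, CHG and CHH DMRs. Over the genome there were 0.495 DMRs per Mb, from 0.391 per Mb on chromosome 6 (68 DMRs, interval 0.303 to 0.495) to 0.591 per Mb on chromosome 4 (146 DMRs, 0.499 to 0.695). The order from high to low was chromosomes 4, 7, 5, 10, 9, 2, 3, 1, 8 and 6, and the interval of each chromosome overlapped that of its neighbours in this order. Only the intervals of chromosomes 4 and 6 were apart. Chromosome 4 also ranked first between teosinte and modern maize (2.85 DMRs per Mb) and chromosome 6 last (2.02 per Mb). Between landraces and modern maize the order was another, with chromosome 2 first (0.242 per Mb) and chromosome 7 last (0.0987 per Mb), although chromosome 7 was second in the teosinte-landrace list (0.559 per Mb). CHG DMRs outnumbered CG DMRs on each of the 10 chromosomes, from 38 against 37 on chromosome 10 (1.03 to 1) to 67 against 42 on chromosome 3 (1.60 to 1).

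**Figure D2:**
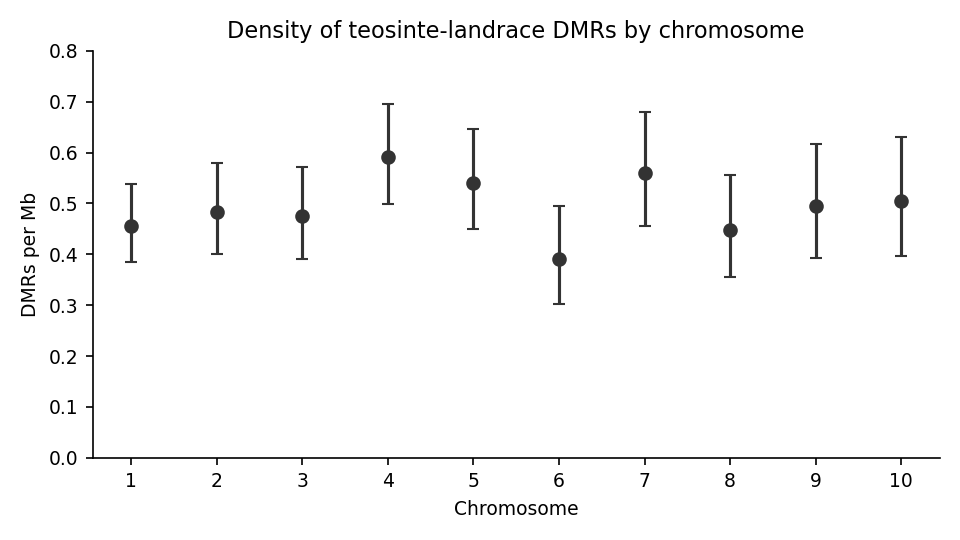
Teosinte-landrace DMRs of all contexts per Mb (y axis) on each chromosome (x axis); points are the densities and bars their exact 95% Poisson intervals. Densities run from 0.391 per Mb on chromosome 6 to 0.591 per Mb on chromosome 4.

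Along the chromosomes the DMRs were densest left of the middle. Each chromosome was divided into 10 bins of equal length, of which the middle ones usually hold the centromere and its transposon-rich surroundings and the outer ones most genes. Bins 4 and 5 together held 338 DMRs (32.4%) in 20% of the length, and bins 7 and 8 held 77 and 76. The CHG share of these central bins was 34.6% (204 DMRs), against 28.8% of the CG DMRs (124) and 45.5% of the CHH DMRs (10). The first 2 and last 2 bins, 40% of the length, held 37.4% of the CG DMRs (interval 32.8% to 42.1%), 32.4% of the CHG DMRs (28.6% to 36.3%) and 18.2% of the CHH DMRs (5.19% to 40.3%). The CG and CHH intervals included the 40% that an even spread would give and the CHG interval did not. The CG and CHG intervals overlapped each other. Between teosinte and modern maize the outer bins held 38.8% of the CG and 35.6% of the CHG DMRs.

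The concentration near the middle was strongest on chromosomes 3, 4 and 7. On chromosome 3 bin 4 alone, 23.6 Mb long, held 48 of 112 DMRs (42.9%), with 21 CG, 26 CHG and 1 CHH. The fullest bin held 46 of 146 DMRs on chromosome 4 (31.5%, bin 5) and 29 of 102 on chromosome 7 (28.4%, bin 4). On the other 7 chromosomes it held between 16.9% and 20.7%. Chromosome 9 differed in that its fullest bin was the last one, with 15 of 79 DMRs, among them 2 CHH DMRs and the longest CHG DMR.

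**Figure D3:**
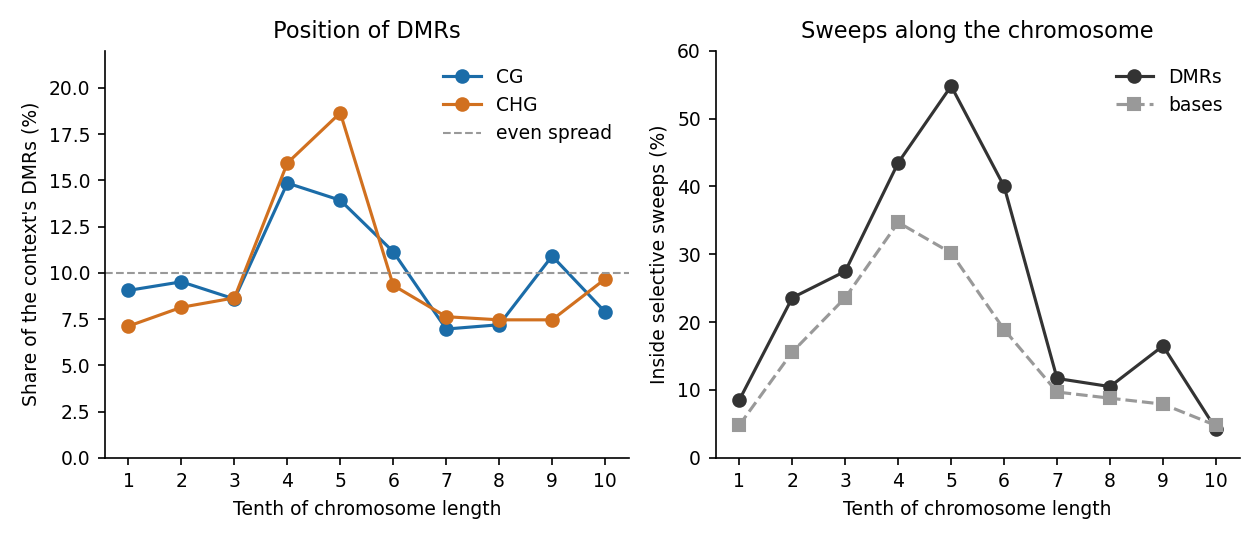
Left, share of the CG and of the CHG DMRs (y axis, percent) in each of 10 equal bins along the chromosomes (x axis), with the even share of 10% dashed; right, percent of all DMRs and percent of bases inside teosinte-landrace selective sweeps in the same bins. CHG DMRs peak at 18.6% in bin 5 and CG DMRs at 14.8% in bin 4, and the DMRs lie above the bases in each bin except the last (4.26% against 4.77%).

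DMRs of different contexts often lay at the same place. Of the 431 CG DMRs, 195 (45.2%, interval 40.5% to 50.1%) overlapped a CHG DMR of the same comparison by at least 1 bp, and 193 of the 590 CHG DMRs (32.7%, 28.9% to 36.7%) overlapped a CG DMR. The CG and CHG calls come from the same reads of the same plants. Paired DMRs were longer than unpaired ones, with medians of 342 against 198.5 bp for CG and 410 against 292 bp for CHG. A longer region has more room to meet another, and the part of length in the pairing was not tested. The paired share of CG DMRs ran from 35.1% on chromosome 10 (13 of 37) to 63.3% on chromosome 9 (19 of 30), with overlapping intervals (20.2% to 52.5% and 43.9% to 80.1%).

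Within the 195 pairs the overlap was nearly complete for the CG DMR. A median of 97.1% of the CG DMR and 87.6% of the CHG DMR was shared, and the shared stretch had a median of 318 bp (range 28 to 1203 bp). In 60 pairs the CG DMR lay wholly inside the CHG DMR, in 39 the CHG DMR inside the CG DMR, and in 96 each reached past the other. The CHG DMR was the longer in 119 pairs (61.0%) and the shorter in 76. The bounds differed at the level of single bases: the starts were within 10 bp of each other in 43 pairs and the ends in 70, and no pair had the same start and end.

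The largest shared stretch, 1203 bp, joined the longest CG DMR (chr1:129828546-129829765) with a CHG DMR at chr1:129828545-129829749. Their starts were 1 bp apart, and both lay inside a teosinte-landrace sweep. Next came 911 bp at chr6:163833436-163834347, where the CG DMR lay inside a CHG DMR of 996 bp, and 900 bp on chromosome 3 between the CG DMR at chr3:78211132-78212066 and the CHG DMR at chr3:78211166-78212131. The fourth, 858 bp, was a CHG DMR (chr5:205090195-205091053) inside a CG DMR (chr5:205090150-205091093) at a place that the study's lists give to an exon of Zm00001d017718. The fifth, 840 bp, was the CG DMR chr4:94224420-94225260 inside a CHG DMR of 961 bp. At this place and at the one on chromosome 5, the teosinte-maize comparison had longer calls in both contexts, of 1252 and 1207 bp on chromosome 4 and of 1193 and 1177 bp on chromosome 5. At the places on chromosomes 6 and 3 it had shorter CG calls, of 107 and 543 bp, and no CHG call. On chromosome 1 its CG call had the same bounds and its CHG call measured 1295 bp.

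Counted as places, 397 held a CHG DMR only, 236 a CG DMR only, 192 both, and 21 a CHH DMR only. A single place, at chr4:93322479-93322779, held a DMR of each context. Places with CG and CHG DMRs had a median length of 448.5 bp, against 198.5 bp for CG alone and 292 bp for CHG alone.

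CHG DMRs also lay near other CHG DMRs more often than CG DMRs near other CG DMRs. A CHG DMR had another within 1 kb in 69 cases (11.7%) and within 10 kb in 124 (21.0%). For CG DMRs the counts were 6 (1.39%) and 24 (5.57%). The median distance to the nearest DMR of the same context was 496 kb for CHG and 1113 kb for CG. The CHG list is the longer, which by itself brings its members closer, and this was not separated here. In 36 instances the gap between adjacent CHG DMRs was at most 1 kb, with a median gap of 436 bp and a smallest gap of 4 bp. The CG list had 3 such gaps, the smallest of 392 bp. By the study's methods, neighbouring cytosines within a DMR are less than 300 bp apart, so a wider gap between cytosines divides a region. Of the gaps up to 1 kb, 2 of the 36 for CHG and 0 of the 3 for CG were up to 300 bp. The part of this calling rule in the short gaps was not tested. Between teosinte and modern maize, 26.8% of CHG DMRs and 12% of CG DMRs had a neighbour of their context within 10 kb.

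**Figure D4:**
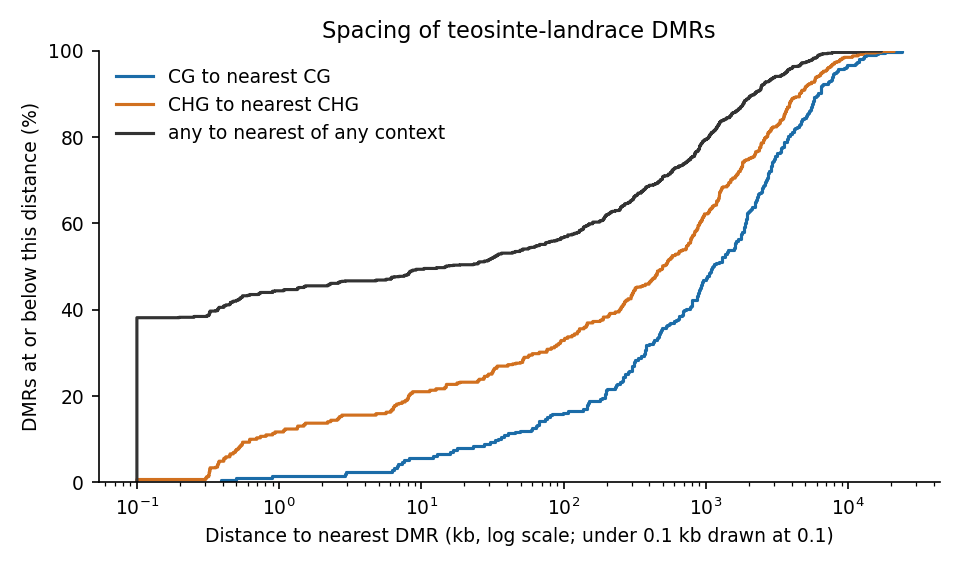
Cumulative share of DMRs (y axis, percent) whose nearest other teosinte-landrace DMR is at or below a distance (x axis, kb, log scale; distances under 0.1 kb, overlaps included, are drawn at 0.1 kb). At 10 kb the CHG line stands at 21.0%, the CG line at 5.57% and the line for any context at 49.4%.

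When DMRs of any context were joined across gaps of up to 10 kb, 515 of the 1043 DMRs (49.4%) fell into 235 clusters and 528 stood alone. Most clusters were CG and CHG DMRs at a single place: 190 (80.9%) held both contexts, and 162 consisted of exactly 1 CG and 1 CHG DMR. Another 36 held CHG DMRs only and 3 CG DMRs only. A CHH DMR was present in 11 clusters, 5 of them among those with both CG and CHG DMRs and 6 with a single other context. Once overlapping DMRs had been merged across contexts, 72 clusters with 18.4% of the places were left. The clusters were short, with a median span of 605 bp and a longest span of 10087 bp. There were 201 clusters of 2 DMRs, 25 of 3, 7 of 4 and 2 of 5.

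The shorter of the 2 clusters of 5 DMRs, at chr1:119935900-119937934, spanned 2034 bp. A CG DMR of 757 bp and a CHG DMR of 807 bp shared its left part. A CHG DMR of 359 bp and a CG DMR of 342 bp shared its centre, and a CHG DMR of 186 bp closed it. Between left part and centre both contexts were broken at about the same place, by 392 bp for CG and 304 bp for CHG. Both gaps were wider than the 300-bp limit between cytosines of a DMR, and the part of that rule was not tested. The other cluster of 5 (chr5:152440153-152448269, 8116 bp, inside a sweep) consisted of a CHH DMR of 152 bp, followed 466 bp later by a CHG DMR of 445 bp that overlapped a CG DMR of 436 bp, and of a CHG DMR of 727 bp around a CG DMR of 152 bp at the far end. At chr4:161345223-161347025, 2 CG and 2 CHG DMRs of 314 to 592 bp formed overlapping CG and CHG pairs over 1802 bp in a stretch that the study's lists place in the body of the gene Zm00001d051525. At chr8:14278942-14283472, a CG DMR of 288 bp and a CHG DMR of 286 bp started 3 bp apart and were followed by CHG DMRs of 239 and 92 bp. At chr1:62874430-62881633, there were CG and CHG DMRs of 232 and 218 bp at the left end and of 592 and 616 bp at the right end. Of the remaining clusters of 4, those at chr8:149257494-149265170 and chr4:106351574-106361410 were made of CHG DMRs alone.

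At the scale of 1 Mb most of the genome held none of these DMRs. Of 2111 windows of 1 Mb, 1533 (72.6%) were empty, 307 held 1 DMR, 157 held 2 and 114 held 3 or more, and the variance of the count per window (1.003) was above its mean (0.494). Overlapping DMRs of different contexts were counted separately (1043 DMRs on 847 places), and their part in this excess was not tested. The fullest window was the first Mb of chromosome 1, with 11 DMRs (5 CG and 6 CHG), all between positions 48405 and 701438. Among them were a CHG DMR of 320 bp overlapping a CG DMR of 217 bp at chr1:210137-210457, in the body of Zm00001d027242 by the study's lists, and a CHG DMR of 523 bp enclosing a CG DMR of 507 bp at chr1:262681-263204, which those lists pair through chromatin contact with Zm00001d014109 and Zm00001d039618. A contact does not place a gene in this window, and the positions of these contact genes were not examined here. The same Mb held 31 teosinte-maize and 3 landrace-maize DMRs, and 1 of its 11 teosinte-landrace DMRs, a CG DMR of 101 bp at chr1:279903-280004, lay in a teosinte-landrace sweep. No other window had more than 6, a number reached by 1 window each on chromosomes 3, 4, 7 and 9. The 6 DMRs of the window on chromosome 3 (from 92 to 93 Mb) were 3 CG and 3 CHG DMRs within positions 92478280 to 92536736. The most isolated DMR was a CHG region of 584 bp at chr3:282761-283345, 17.1 Mb from its nearest neighbour. It was followed by a CHG region of 146 bp at chr3:17377517-17377663 (12.7 Mb) and a CG region of 400 bp at chr5:177881219-177881619 (11.9 Mb).

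The WGS reads, from plants of the same names as the bisulfite libraries, gave another readout, the selective sweeps between teosinte and landraces. These are stretches where allele frequencies differed between the populations more than along most of the genome. Sweeps and DMRs thus do not come from independent samples. Sweeps were scored with XP-CLR, a composite likelihood ratio computed from SNPs. The deposited table held 1355 teosinte-landrace sweeps, 334.7 Mb in all or 15.9% of the bases. Of the 1043 DMRs, 298 (28.6%, interval 25.9% to 31.4%) lay in a sweep, 1.80 times the share of bases. The share was 27.2% for CG DMRs (117, interval 23.0% to 31.6%), 28.5% for CHG DMRs (168, 24.9% to 32.3%) and 59.1% for CHH DMRs (13, 36.4% to 79.3%). CG and CHG DMRs thus had overlapping intervals, and the CHH share rested on 22 regions. With only the 678 sweeps whose score was at or above the median, which cover 11.4% of the bases, 7 CHH DMRs (31.8%) lay in a sweep. With sweeps over 1 Mb left out, which leaves 12.4% of the bases, the shares of CG, CHG and CHH DMRs were 18.1%, 17.5% and 45.5%. The cytosines that could be called in sweeps and outside them, and the number of bases that reads could be placed on, were not analysed here, and their part in these shares was not tested.

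**Figure D5:**
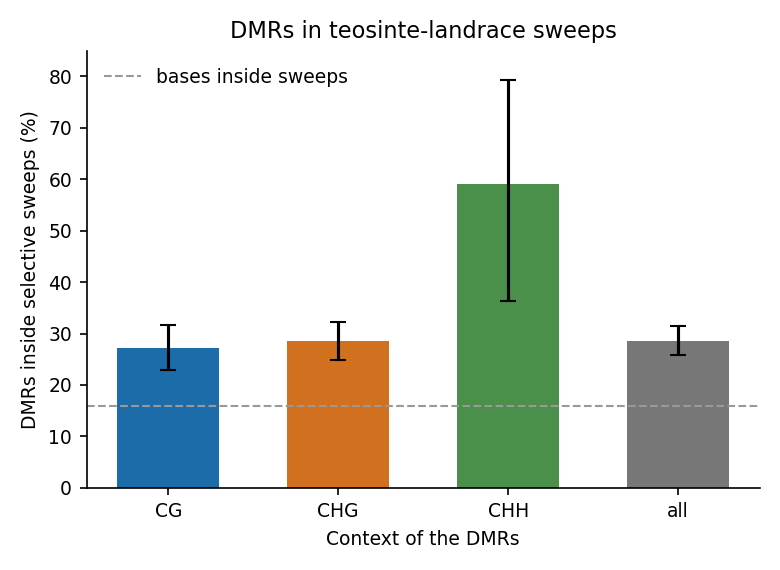
Percent of teosinte-landrace DMRs inside teosinte-landrace selective sweeps (y axis) for each context and for all contexts (x axis); bars are shares, error bars exact 95% binomial intervals, and the dashed line is the 15.9% of bases inside these sweeps. Each interval lies above the dashed line, and that of the 22 CHH DMRs is the widest (36.4% to 79.3%).

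DMRs and sweeps were both commonest in the middle of the chromosomes. In the middle 60% of the length, 36.5% of the DMRs and 21.0% of the bases lay in sweeps, and in the outer bins 13.2% of the DMRs (interval 9.86% to 17.2%) and 8.27% of the bases. For CG DMRs of the outer bins the share was 10.6% (6.27% to 16.4%), with an interval that includes the share of bases, and for CHG DMRs 15.7% (10.9% to 21.7%). The excess over the bases was uneven between chromosomes. On chromosome 7, 49.0% of the DMRs lay in sweeps against 19.6% of the bases, on chromosome 5 43.8% against 17.2%, on chromosome 3 40.2% against 13.7% and on chromosome 4 38.4% against 22%. Chromosomes 2 and 9 were close to their bases (13.6% against 12%, and 10.1% against 9.88%), and on chromosome 10 the share of DMRs was the lower one (11.8% against 15.1%). In the fullest bins named above, sweeps covered much of the bases as well. On chromosome 7, 26 of 29 DMRs of the bin (89.7%) lay in a sweep against 93.2% of its bases, on chromosome 4 36 of 46 (78.3%) against 64.7% and on chromosome 3 32 of 48 (66.7%) against 53.7%. In the last bin of chromosome 9, where sweeps covered 2.75% of the bases, none of the 15 DMRs lay in one.

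CG DMRs in sweeps overlapped a CHG DMR in 53.8% of cases (63 of 117, interval 44.4% to 63.1%) and CG DMRs elsewhere in 42.0% (132 of 314, 36.5% to 47.7%). Of the places with both contexts 32.8% lay in a sweep (26.2% to 39.9%), of those with CHG alone 26.4% (22.2% to 31.1%) and of those with CG alone 22.9% (17.7% to 28.8%). The intervals overlapped in each of these comparisons. DMRs in sweeps were somewhat longer, with medians of 278 against 251.5 bp for CG and 372 against 324 bp for CHG.

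Seen from the sweeps, 133 of 1355 (9.82%) held a teosinte-landrace DMR. These were the longer ones, with a median of 455 kb against 135 kb for sweeps without a DMR, and a longer sweep has more room for one. Per Mb of sweep there were 0.104 DMRs in sweeps under 100 kb, 0.718 in those of 100 to 250 kb, 0.874 in those of 250 kb to 1 Mb and 1.44 in those over 1 Mb, and 0.421 outside sweeps. The shortest sweeps, 406 in number, held 3 DMRs, fewer per Mb than the genome outside sweeps, and the 44 longest held 107. The median XP-CLR score was 90.8 in sweeps with a DMR and 67.5 in those without. Within length classes, sweeps with a DMR had the higher median only at 250 kb to 1 Mb (98.3 with and 88.9 without). They had the lower one under 100 kb (57.8 and 59.9, with 3 sweeps holding a DMR), at 100 to 250 kb (63.1 and 66.7) and over 1 Mb (120 and 142).

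Most of the sweeps with the highest scores held no DMR, as did most sweeps. Among the 10 with the highest scores 4 held a DMR, among the top 50 it was 10 and among the top 100 it was 20, against 133 of all 1355 (9.82%). These shares do not allow for sweep length. The top 10 held 6 DMRs in 7.66 Mb, the top 50 held 14 in 30.68 Mb and the top 100 held 38 in 50.45 Mb. All sweeps together held 298 DMRs in 334.7 Mb (0.89 per Mb). Per Mb, each of the top sets thus held fewer DMRs than all sweeps together, although a larger share of its sweeps held one. Neither difference was tested. The sweep with the highest score (chr9:49710001-51280000, score 659) held 1 CHG DMR of 352 bp at chr9:50247337-50247689. Those ranked 2 to 4, on chromosomes 8, 1 and 3 (scores 533, 481 and 459), held none. The fifth (chr8:30970001-31730000, score 414) held a CG DMR of 608 bp (chr8:31656844-31657452) with a CHG DMR of 552 bp inside it.

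The sweep with the most DMRs was the longest one, chr7:59585001-68325000, with 16 DMRs (5 CG and 11 CHG) over 8740 kb and a score of 111 that ranked 206. Its DMRs were spread over most of its length, from a CHG DMR of 854 bp around a CG DMR of 347 bp at chr7:60782360-60783214 to a CHG DMR of 203 bp at chr7:68163057-68163260. A sweep of 2575 kb on chromosome 4 (chr4:117870001-120445000) held 4 CG and 5 CHG DMRs, the first of them at a place given to an exon of Zm00001d050714 by the study's lists. A sweep of 540 kb on the same chromosome (chr4:111650001-112190000) held 7 DMRs, 5 of them CHG, with a CHH DMR of 54 bp (chr4:112042698-112042752) among them. The smallest of these sweeps, chr3:92415001-92615000, held 3 CG and 3 CHG DMRs in 200 kb, although its score of 50.3 ranked only 1315. They formed overlapping CG and CHG pairs at chr3:92478280-92478715 and chr3:92536355-92536690 and, between these, a CHG DMR of 144 bp and a CG DMR of 356 bp that did not overlap. By the study's lists the first pair lay downstream of Zm00001d041041. Further sweeps with 6 DMRs on chromosome 3 spanned 2105 kb (4 CG and 2 CHG) and 3565 kb (1 CG and 5 CHG).

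The 745 DMRs outside sweeps lay at a median of 518 kb from the nearest teosinte-landrace sweep (quartiles 162 and 1450 kb). Of these, 133 (17.9%) were within 100 kb of one, and the farthest was 11.97 Mb away.

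The 22 CHH DMRs were scattered, 1 to 4 on each chromosome, and none lay within 1 Mb of another. A single one overlapped DMRs of other contexts, the region of 125 bp at chr4:93322479-93322604, which met both a CG and a CHG DMR. A further group stood just beside CG or CHG DMRs. In all 10 were within 1 kb of one, overlap included, for example the CHH DMR at chr3:154397819-154397908, which began 37 bp past a CHG DMR, and that at chr9:153247730-153247813, which ended 64 bp before a CG DMR. The longest CHH DMR, of 308 bp at chr3:78212664-78212972, began 533 bp past the CHG DMR of 965 bp that formed the third longest overlap above. At the other extreme, 7 were more than 1 Mb from any CG or CHG DMR, up to 7.77 Mb for the region of 60 bp at chr7:39159361-39159421. In the middle 60% of the chromosomes lay 18 of the 22.

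Some CHH DMRs had counterparts in the other comparisons. The CHH DMR at chr6:38595762-38595856 (94 bp) had a landrace-maize call with the same bounds, and the shortest, chr1:11740838-11740883 (45 bp), had a landrace-maize call of 54 bp. The region of 57 bp at chr9:158171392-158171449 had a teosinte-maize call with the same bounds. The second longest CHH DMR, chr2:96712002-96712237, was 235 bp long against 59 bp for the teosinte-maize call there, and the next, chr1:140038231-140038434, was 203 bp against 150 bp. The teosinte-maize call was the longer one at chr5:45324281-45324415 (157 against 134 bp) and chr5:103247720-103247814 (196 against 94 bp). At chr9:153247730-153247813 (83 bp) it measured 36 bp. At chr2:129374621-129374756 (135 bp) there were 2 such calls, the first of 53 bp. The remaining CHH DMRs, the longest among them, had no CHH call at their place in either comparison.

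Gene features could be given only where the study's lists name a gene at a teosinte-maize DMR that overlapped a teosinte-landrace one, since an annotation of this genome build was not used here. The lists assign places by the teosinte-maize region, so that a teosinte-landrace DMR may touch only a part of it. In all, 143 genes were listed at 190 teosinte-landrace DMRs, and 39 of these DMRs lay in a sweep. By place there were 39 exon, 44 gene-body, 38 upstream, 38 downstream and 16 contact genes, with some genes under several places. The lists hold many genes beyond those named in this text, which are examples and do not stand for these totals. Besides the genes named above, they gave an exonic place to Zm00001d000555 on chromosome 3, where a CG DMR of 434 bp (chr3:78898364-78898798) and a CHG DMR of 481 bp (chr3:78898392-78898873) overlapped inside a sweep. They placed Zm00001d045280 on chromosome 9 beside a CG DMR of 526 bp and a CHG DMR of 522 bp, both inside a sweep (chr9:17829524-17830050 and chr9:17829544-17830066), with the pair downstream of the gene. By chromatin contact they paired Zm00001d018036 with a CG DMR of 195 bp on chromosome 5 (chr5:212643526-212643721), outside sweeps. The gene table used here gave no symbol for any of these IDs.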

How the data were processed

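WGBS and WGS libraries came from 20 teosinte and 17 landrace plants, grouped by their labels. The authors mapped bisulfite reads with Bowtie2 to B73 AGPv4 carrying each plant's SNPs, extracted cytosines with Bismark and called DMRs between populations with metilene; BWA, Picard and GATK 4 are also named in the submitters' processing notes. Mapping to corrected genomes limits lost reads at SNPs, and thresholds on the difference leave out small shifts. The deposited sweep table holds the XP-CLR score of SNP windows that the authors merged and kept as outliers, a value with no fixed unit. The DMR table holds positions, contexts and comparisons. DMR starts were taken as counted from 0 (the sources do not state their origin) and sweep starts from 1.

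DMRs were compared with sweeps and with each other at an overlap of at least 1 bp, and clusters were chained at 10 kb. Chromosomes ended at the largest deposited position, 2105427221 bp in all. Shares have exact 95% intervals. Scripts ran in Python 3.11.15 (scipy 1.17.1, numpy 2.4.6, matplotlib 3.10.9, pandas 2.3.3), and the overlap and distance steps were tested on simulated regions. Regions named are, per context, the longest and shortest DMRs, then the fullest clusters, windows and sweeps, the longest overlaps, the highest sweep scores, the most isolated DMRs and CHH DMRs at or near others; the CHH DMRs with counterparts in other comparisons, the DMR at the end of the longest CHG DMR and the listed genes shown were picked after their values were seen. The regions, rules and lists were chosen with earlier results of these data known. Depth per cytosine is unknown here, and population means, sample details beyond depth and read length, and a gene table of another assembly (no gene ID of which matched) were not used. The alternatives tried were other overlaps, sweeps, gaps, minimum lengths and bins.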

Additional observations from a re-analysis of the deposited data

How the results depend on the processing

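Over 16 results, 58 of 74 values under other settings stayed within a range set for each kind of value and 16 left it. The range was the 95% interval for a share, 1.5 times for a count and 1 SD of the lengths for a median. Many of the values had little or no room to leave it, so the tally does not measure robustness. A minimum of 50 bp removes no CG or CHG DMR, since the shortest are 61 and 64 bp. Counting DMR starts from 1 moves each by a single base. Values with 1 chromosome left out share most regions with the main value. For CG DMRs the SD was 184 bp on a median of 260 bp. The range of the 22 CHH DMRs is wide. With only sweeps scored at or above the median (11.4% of bases), 21.6% of CG, 23.7% of CHG and 31.8% of CHH DMRs lay in sweeps, and with only sweeps of at most 1 Mb (12.4% of bases) 18.1% of CG, 17.5% of CHG and 45.5% of CHH DMRs. Each share stayed above its share of bases. With each chromosome left out in turn, the shares ranged from 25.2% to 29.3% for CG, 25.9% to 30.4% for CHG and 50% to 65% for CHH DMRs. The share of DMRs in clusters was 44.4% with gaps of up to 1 kb and 56.8% with 100 kb, 5.57% for CG DMRs alone (12 clusters), 21.0% for CHG DMRs alone (57 clusters) and 18.4% after merging across contexts (72 clusters), the last 3 by their construction. Keeping DMRs of at least 100 bp left 11 CHH DMRs, with a median of 149 bp. With 20 bins the outer part is 20% of the length, and it held 16.9% of CG and 16.8% of CHG DMRs. These CG and CHG shares were nearly equal. The alternative with chromosome ends from a reference sequence was not run, since no genome of the build was used. No paired analysis was possible because the DMRs were called between populations and carry no values of single plants; plants could not be left out for the same reason.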
